A study of Oryza sativa with 6 samples.

Results

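The 10 aquaporin loci described here were measured in developing rice seeds of the wild type and of an RBP-L knockdown line. RBP-L is an RNA-binding protein. The loci were chosen by a list of identifiers, and all were found among the 55986 loci of the file. By the names given with the list, 6 are plasma membrane intrinsic proteins (PIP1;1, PIP1;2, PIP1;3, PIP2;1, PIP2;2 and PIP2;6) and the others tonoplast intrinsic proteins (TIP1;1, TIP2;2, TIP3;1 and TIP3;2). The wild type was the cultivar ZH11, a japonica rice, and the knockdown, named rbpl, was set against it as a single line. Each group had 3 biological repeats of dehulled seeds, taken 10 to 14 days after flowering from plants grown at 27 °C under 12 h of light and 12 h of darkness. They are called WT-1, WT-2, WT-3, rbpl-1, rbpl-2 and rbpl-3, and triplets of values below follow that order. With 1 line, RBP-L and the line's descent cannot be told apart as the source of any difference below.

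Aquaporins are membrane channels that let water, and in some members small solutes, pass along their gradients. PIPs sit mainly in the plasma membrane and TIPs in the membrane of the vacuole. Work in maize showed that PIP1 proteins reach the plasma membrane when paired with PIP2 proteins, while PIP2 proteins reach it alone. In Arabidopsis, TIP3 proteins mark the protein storage vacuoles of seeds, and their transcripts accumulate as the seed matures.

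The files pair no names with the identifiers, and a reference table of 39387 rice genes held 0 of the identifiers. That table does hold all 10 names, each on the chromosome that the member's identifier carries. For LOC_Os04g44060, listed as TIP3;2, this check decides nothing, because the table also places PIP2;3 on chromosome 4. In the rice nomenclature as generally known, LOC_Os04g44060 is PIP2;3 and LOC_Os04g44570 is TIP3;2. Their levels were far apart. LOC_Os04g44060 had 5, 14 and 6 reads in the wild type and 11, 32 and 10 reads in rbpl, which is 0.0823 to 0.494 RPKM (reads per unit of gene length and of sequencing depth). LOC_Os04g44570 had 43.9, 55.0 and 48.6 RPKM in wild-type seeds and 64.6, 50.3 and 48.3 RPKM in rbpl seeds, near the levels of TIP3;1. LOC_Os04g44060 is therefore called by its identifier and not described as a TIP3 gene, and LOC_Os04g44570 is given beside TIP3;1.

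The targeted transcript, RBP-L (LOC_Os04g53440), stood at 62.8, 56.8 and 51.2 RPKM in wild-type seeds and at 15.1, 14.4 and 15.3 RPKM in rbpl seeds (log2 fold change −1.86, limma adjusted p = 0.000159). The libraries held 44187374 to 50714582 reads, as recovered from the steps of the RPKM values. WT-1 stood apart. Across tested loci (genes, not replicates), its log2 levels correlated with the other wild-type libraries at 0.965 and 0.966, while those 2 correlated at 0.995 with each other. Each fold change of a tested aquaporin locus below is therefore given with and without WT-1. The fits without WT-1 rest on 2 wild-type libraries that lie close together, and WT-1 was singled out from these same data. In them 3130 of all tested loci were called, against 1148 with all 6 libraries, so a pass without WT-1 is descriptive. Identifiers were written down from general knowledge as genes of the endosperm and of the embryo and aleurone. The former 8 loci spanned 427 to 7158 RPKM and the latter 5 spanned 29.6 to 3926 RPKM, with none at 0 in any library. A list of 5 green tissue loci was not at 0 either (26.7 to 2904 RPKM), so this does not tell seed from other tissue.

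Most of these aquaporins were abundant seed transcripts. PIP2;1 had the highest mean over the 6 libraries, 1166 RPKM, a level above that of 99.7% of the 17507 tested loci. It was followed by TIP1;1 at 931 RPKM and PIP1;1 at 416 RPKM. PIP1;2 and TIP2;2 were close, with means of 346 and 340 RPKM, and the former was the higher in 4 of 6 libraries. PIP1;3 followed at 101 RPKM, PIP2;2 at 55.4 RPKM, TIP3;1 at 43.9 RPKM and PIP2;6 at 25.4 RPKM. The pair at 55.4 and 43.9 RPKM kept its order in 5 of 6 libraries, and the neighbours in this order other than these 2 pairs kept theirs in 6 of 6. LOC_Os04g44060 came last at 0.209 RPKM. It lay below the minimum that the test required, a mean of 1 RPKM in at least 1 group, so 9 of the 10 loci were tested.

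**Figure D1:**
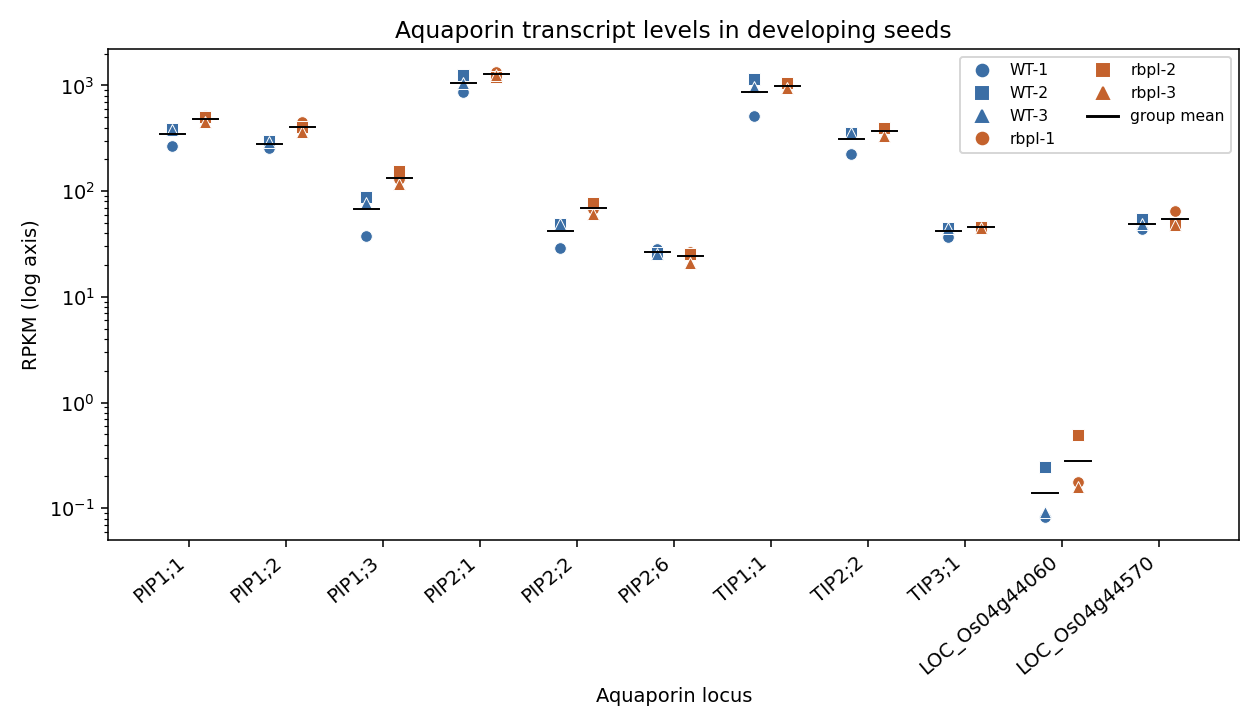
RPKM on a log axis of the 10 aquaporin loci and of LOC_Os04g44570, with 1 point per library (blue, wild type, and orange, rbpl, with circle, square and triangle for replicates 1, 2 and 3) and black bars for the group means. LOC_Os04g44060 lies below 0.5 RPKM in every library, and the WT-1 circle is the lowest wild-type point of every locus but PIP2;6.

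In rbpl seeds, 1 of the 9 tested members, PIP1;2, rose and 0 fell (limma on log2(RPKM + 1), adjusted p below 0.05). Over all 17507 tested loci, 3.46% rose and 3.10% fell. At an unadjusted p below 0.05, 4 members were higher and 0 lower, against 9.41% and 12.2% of all tested loci. A second tool, limma-voom on the recovered reads, called 1 that rose and 0 that fell. The median log2 fold change of the 9 was 0.28, against −0.04 over all tested loci. Without WT-1, 4 members rose and 0 fell (4 and 0 at an unadjusted p below 0.05), while over all loci 8.51% rose and 9.51% fell. These were the 3 PIP1 loci and PIP2;2. The median of the 9 was then 0.14, against −0.02 over all tested loci. For these 4 members the RPKM values of the groups did not overlap, with rbpl higher, a pattern that 12.2% of all tested loci showed. The opposite pattern, shown by 17.9% of all tested loci, was found in 0 of the 9 members. The members were chosen with earlier results of these data known, so their counts beside all loci are descriptive only.

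PIP1;2 (LOC_Os04g47220, chromosome 4), a PIP1 channel, was the single member called with all libraries. Its levels were 254, 299 and 294 RPKM in wild-type seeds and 456, 405 and 366 RPKM in rbpl seeds, from 16019 to 29122 reads. Every rbpl library was above every wild-type library. The mean was 282 ± 25.0 RPKM (SD, n = 3) in wild-type and 409 ± 45.1 RPKM (SD, n = 3) in rbpl seeds, 1.45-fold higher. Its log2 fold change of 0.53 (standard error 0.13) had a limma adjusted p of 0.0485, close to the threshold. An exact permutation test on the RPKM gave p = 0.1, the smallest that 3 against 3 libraries allow. The call was lost when any library other than WT-1 was left out (adjusted p of 0.0856 to 0.195), and under 5 other settings. Without WT-1 the log2 fold change was 0.46, with a limma adjusted p of 0.00878.

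PIP1;3 (LOC_Os02g57720, chromosome 2), also called RWC3 and studied in rice for its part in drought avoidance, had the largest fold difference among the 9. Its levels were 37.5, 87.3 and 76.9 RPKM in wild-type seeds and 131, 155 and 117 RPKM in rbpl seeds. WT-1 lay at 45.7% of the mean of WT-2 and WT-3, so the wild-type spread was wide, yet the groups did not overlap. The means were 67.2 ± 26.2 and 134 ± 19.2 RPKM (SD, n = 3 each), a ratio of 2.0. The log2 fold change of 1.07 (95% interval 0.39 to 1.74) did not pass the test (limma adjusted p = 0.0761). Without WT-1 the ratio was 1.64 and the log2 fold change 0.70 (0.44 to 0.96), which passed with a limma adjusted p of 0.00208.

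PIP1;1 (LOC_Os02g44630, chromosome 2), studied in rice for salt tolerance and seed germination, was the most abundant PIP1. It stood at 268, 384 and 383 RPKM in wild-type seeds and at 512, 498 and 450 RPKM in rbpl seeds. All rbpl libraries were above the wild-type ones, and WT-1 was again the lowest. The means were 345 ± 66.8 and 487 ± 32.7 RPKM (SD, n = 3 each), a ratio of 1.41. The difference of 0.51 in log2 (95% interval 0.14 to 0.88) did not pass the test (limma adjusted p = 0.110). Without WT-1 it was 0.34 (0.15 to 0.53) and passed, with a limma adjusted p of 0.0199.

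Among the PIP2 members, PIP2;2 (LOC_Os02g41860, chromosome 2) differed most. It stood at 29.3, 49.0 and 48.5 RPKM in wild-type seeds and at 67.2, 77.9 and 60.7 RPKM in rbpl seeds. The lowest rbpl library was above the highest wild-type library, and WT-1 lay at 60.1% of the mean of the other wild-type libraries. The means were 42.2 ± 11.2 and 68.6 ± 8.71 RPKM (SD, n = 3 each), and the log2 fold change of 0.72 (95% interval 0.24 to 1.19) did not pass the test (limma adjusted p = 0.0865). Without WT-1 it was 0.48 (0.25 to 0.71) and passed, with a limma adjusted p of 0.00899.

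PIP2;1 (LOC_Os07g26690, chromosome 7), the most abundant member, stood at 871, 1259 and 1053 RPKM in wild-type seeds and at 1348, 1208 and 1260 RPKM in rbpl seeds. The groups overlapped, since WT-2 was above rbpl-2. Its log2 fold change of 0.28 (−0.07 to 0.63) did not pass the test with all libraries (limma adjusted p = 0.338), nor did that of 0.14 (−0.08 to 0.36) without WT-1 (limma adjusted p = 0.371).

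PIP2;6 (LOC_Os04g16450, chromosome 4), studied in rice for arsenite transport, was the only tested member whose mean was lower in rbpl. It stood at 28.3, 26.3 and 25.4 RPKM in wild-type seeds and at 26.4, 25.4 and 20.7 RPKM in rbpl seeds. The groups overlapped, and the log2 fold change of −0.14 (−0.42 to 0.13) did not pass the test (limma adjusted p = 0.541). Without WT-1 it was −0.10 (−0.34 to 0.14, limma adjusted p = 0.580). It was also the only tested member in which WT-1 was not the lowest wild-type library.

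None of the TIP members passed the test, with or without WT-1 (limma and, with all libraries, limma-voom, with 0 at an unadjusted p below 0.05 in either direction). TIP1;1 (LOC_Os03g05290, chromosome 3), an abundant vacuolar water channel, stood at 516, 1141 and 962 RPKM in wild-type seeds and at 963, 1054 and 950 RPKM in rbpl seeds. WT-1 was at 49.0% of the mean of WT-2 and WT-3, while the rbpl libraries lay within the wild-type range. Its log2 fold change was 0.26 (−0.37 to 0.88, limma adjusted p = 0.635), and without WT-1 it changed sign to −0.08 (−0.30 to 0.13, limma adjusted p = 0.608).

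TIP2;2 (LOC_Os06g22960, chromosome 6), another vacuolar channel, stood at 227, 354 and 353 RPKM in wild-type seeds and at 381, 392 and 335 RPKM in rbpl seeds. The groups overlapped, with a log2 fold change of 0.27 (−0.16 to 0.70, limma adjusted p = 0.445) and, without WT-1, of 0.06 (−0.14 to 0.26, limma adjusted p = 0.715). With all libraries, the intervals of both channels include the log2 fold change of 0.53 found for PIP1;2. Without WT-1 they do not include the 0.455 found for PIP1;2 in that fit.

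TIP3;1 (LOC_Os10g35520, chromosome 10), the seed-type TIP, stood at 36.5, 45.2 and 44.6 RPKM in wild-type seeds and at 46.2, 46.0 and 44.8 RPKM in rbpl seeds. The values varied little, with a coefficient of variation of 1.63% within rbpl, and WT-1 alone stood below the rest. The log2 fold change was 0.12 (−0.14 to 0.38, limma adjusted p = 0.580), and 0.02 (−0.15 to 0.20, limma adjusted p = 0.869) without WT-1. LOC_Os04g44570, whose values in each library are given above, had means of 49.2 ± 5.59 and 54.4 ± 8.91 RPKM (SD, n = 3 each). Its log2 fold change of 0.14 did not pass the test either (limma adjusted p = 0.632), nor did that of 0.06 without WT-1 (limma adjusted p = 0.787). The ratio of TIP3;1 to LOC_Os04g44570 was 0.857 ± 0.0535 in wild-type and 0.853 ± 0.120 in rbpl seeds (SD, n = 3 each), a difference smaller than the spread between libraries.

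**Figure D2:**
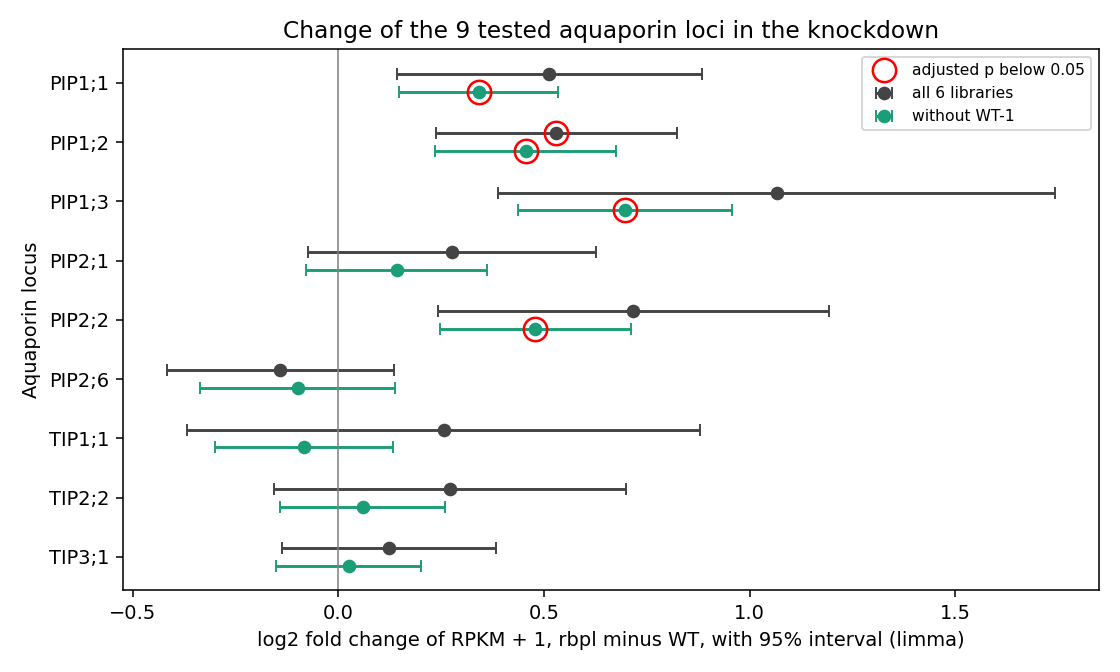
Log2 fold change of RPKM + 1 (rbpl minus wild type) of the 9 tested aquaporin loci with 95% intervals by limma, with all 6 libraries (grey) and without WT-1 (green), where red rings mark an adjusted p below 0.05. With all libraries 1 locus is ringed and without WT-1 4 are, each of these 4 with a smaller fold change and a shorter interval.

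LOC_Os04g44060 was near the limit of what these libraries can show. Its means were 0.140 ± 0.0916 RPKM in wild-type and 0.278 ± 0.188 RPKM in rbpl seeds (SD, n = 3 each), with overlapping groups and an exact permutation p of 0.3. With no minimum on the level, its log2 fold change of RPKM + 1 was 0.16 (−0.12 to 0.43, limma adjusted p = 0.576). At this level the added 1 outweighs the RPKM and shrinks that value and its interval. The ratio of the mean RPKM was 1.99, and the interval does not bound it.

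Most members shared the low position of WT-1. In 8 of the 9 tested members WT-1 was the lowest of all 6 libraries, which was the case for 23.9% of all tested loci. In 5 of the 9 it was at most 0.75 of the mean of WT-2 and WT-3, against 18.5% of all tested loci. Marker lists also differed in WT-1. These lists were chosen with earlier results of these data known, so counts set against those of all loci are descriptive only. The 5 loci written down from general knowledge as genes of green tissue summed to 1710 RPKM in WT-1, 3441 and 3235 RPKM in WT-2 and WT-3, and 3582 to 4075 RPKM in rbpl. Within this list the loci differed, since WT-1 was the lowest wild-type library in 3 of the 5 and the highest in 2. Of these 5, 3 rose in rbpl and 0 fell (limma, with 4 and 0 at an unadjusted p below 0.05, and 3 and 0 by limma-voom), against 3.46% and 3.10% of all tested loci, and none was at 0. Without WT-1, 4 rose and 0 fell (4 and 0 at an unadjusted p below 0.05), against 8.51% and 9.51%. The endosperm list summed to 26340 RPKM in WT-1, 17758 and 20594 RPKM in WT-2 and WT-3, and 17202 to 19508 RPKM in rbpl. In all 8 of its loci WT-1 was the highest wild-type library, and 0 rose and 0 fell (limma, with 0 and 3 at an unadjusted p below 0.05, and 0 and 0 by limma-voom), while without WT-1 2 fell. The embryo and aleurone list summed to 6167 to 6836 RPKM in the wild type and 6271 to 7877 RPKM in rbpl. In 4 of its 5 loci WT-1 was the lowest wild-type library, and in 1 the highest. Of the 5 loci of this list 0 rose and 0 fell (limma, with 1 and 0 at an unadjusted p below 0.05, and 0 and 0 by limma-voom), while without WT-1 1 rose and 1 fell. The part of these tissues in the aquaporin differences was not tested. In whole seeds, a change in the share of a tissue and a change of transcript within its cells cannot be told apart.

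**Figure D3:**
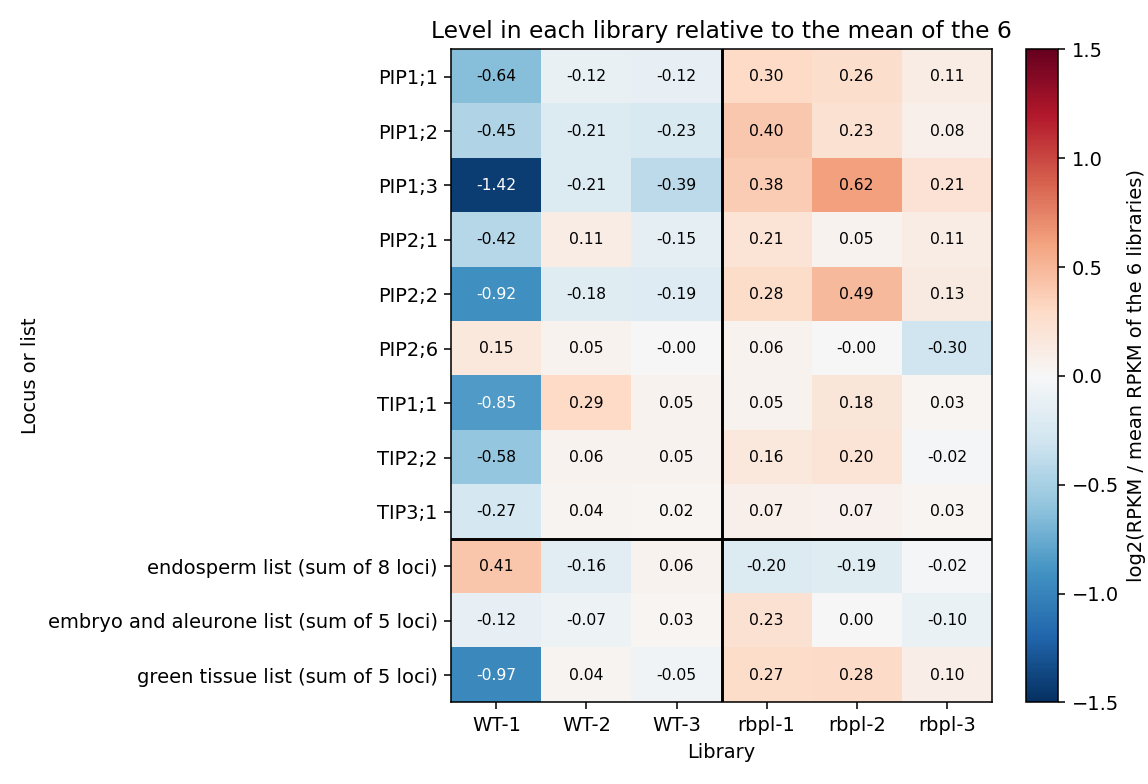
Log2 level of each tested aquaporin locus and of the summed marker lists in each library, relative to the mean of the 6 libraries (red above, blue below). WT-1 is below the mean for 8 of the 9 aquaporin loci and above it for the endosperm list. It is also below the mean for the sums of the green tissue list (−0.97) and of the embryo and aleurone list (−0.12). Within these 2 lists WT-1 is the highest wild-type library for 2 of the 5 and for 1 of the 5 loci.

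Summed over the 10 members, aquaporin transcripts reached 2266, 3645 and 3241 RPKM in wild-type seeds and 3932, 3861 and 3603 RPKM in rbpl seeds, and the groups overlapped. The 3 PIP1 loci summed to 559, 770 and 754 RPKM in wild-type seeds and to 1099, 1058 and 932 RPKM in rbpl seeds, without overlap. Since none of these 3 loci overlapped on its own, their sum could not overlap and adds no further result. The 3 PIP2 members summed to 928, 1334 and 1127 RPKM against 1442, 1311 and 1341 RPKM, with overlap. The 3 TIP members that were tested summed to 779, 1541 and 1360 RPKM against 1391, 1492 and 1330 RPKM, with overlap as well. PIP1 loci made up 23.0 ± 1.78% of the pool in wild-type seeds and 27.1 ± 1.08% in rbpl seeds (SD, n = 3 each), and each rbpl library was above each wild-type library. Taken singly, the shares of PIP1;1 and PIP1;3 did not overlap either. Nor did that of PIP2;2, with means of 1.38% in wild-type and 1.80% in rbpl seeds. The share of PIP2;6 was lower in rbpl without overlap, with means of 0.917% and 0.635%. For PIP1;2 the shares overlapped, at 11.2, 8.21 and 9.08% in wild-type seeds and 11.6, 10.5 and 10.1% in rbpl seeds. The ratio of the PIP1 to the PIP2 sum was 0.602, 0.577 and 0.669 in wild-type seeds and 0.762, 0.807 and 0.695 in rbpl seeds. On this ratio WT-1 lay between WT-2 and WT-3, unlike on the levels themselves. PIP2;1 made up most of the PIP2 sum. It held 35.15% of the pool in wild-type and 33.51% in rbpl seeds, against 37.45% and 35.95% for all PIP2 members. The ratio therefore mainly sets PIP1 against PIP2;1, while PIP2;2 alone was higher in each rbpl library than in each wild-type library. The ratio of the PIP1 to the TIP sum was 0.717, 0.4999 and 0.554 in wild-type seeds and 0.790, 0.709 and 0.701 in rbpl seeds, so that WT-1 stood above the other wild-type libraries and the groups overlapped. The ratio of the PIP2 to the TIP sum was 1.19, 0.866 and 0.829 in wild-type seeds and 1.04, 0.879 and 1.01 in rbpl seeds, which overlapped. These sums and ratios describe the listed loci and carry no test.

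**Figure D4:**
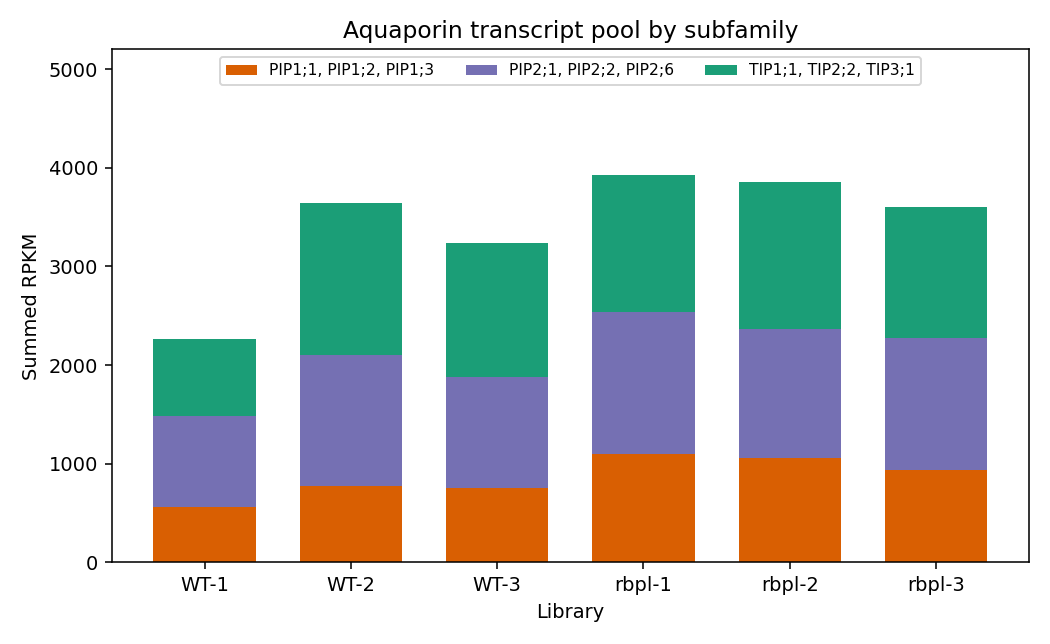
Summed RPKM in each library of the PIP1 (orange), PIP2 (violet) and TIP (green) loci named in the legend, stacked from 0. WT-1 has the smallest pool at 2266 RPKM, and the PIP1 part is larger in each rbpl library (932 to 1099 RPKM) than in each wild-type library (559 to 770 RPKM).

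A further 22 identifiers were written down from general knowledge as the other rice aquaporin loci, among them those of the NIP and SIP types, and their names were not checked against an annotation. All 22 were in the file, 3 had no reads in any library, and 13 passed the minimum level. Of the 13, 1 rose and 0 fell (limma, with 3 and 2 at an unadjusted p below 0.05, and 1 and 0 by limma-voom), against 3.46% and 3.10% of all tested loci. Their median log2 fold change was 0.15, against −0.04 over all tested loci. Without WT-1, 2 rose and 2 fell, against 8.51% and 9.51%. This list too was chosen with earlier results of these data known, so its counts are descriptive only. The locus that rose with all libraries was LOC_Os01g74450, listed as a TIP. It stood at 6.36, 7.20 and 7.10 RPKM in wild-type seeds and at 15.2, 12.6 and 11.9 RPKM in rbpl seeds, without overlap. WT-1 was here close to the other wild-type libraries. Its log2 fold change was 0.85 (standard error 0.12, limma adjusted p = 0.00641), and without WT-1 it was 0.80 (limma adjusted p = 0.000460). LOC_Os07g26630, listed as a PIP, stood at 17.4, 29.3 and 25.6 RPKM in wild-type seeds and at 40.3, 37.7 and 36.4 RPKM in rbpl seeds. Its log2 fold change of 0.67 did not pass with all libraries (limma adjusted p = 0.0689), and without WT-1 it was 0.46 and passed (limma adjusted p = 0.00520). The 2 loci that fell without WT-1 are both listed as TIPs. LOC_Os01g13130 stood at 9.49, 14.2 and 14.6 RPKM in wild-type seeds and at 9.88, 9.57 and 7.85 RPKM in rbpl seeds, with overlap through WT-1. The fitted log2 fold change was −0.43 with all libraries (limma adjusted p = 0.199) and −0.61 without WT-1 (limma adjusted p = 0.00235). LOC_Os05g14240 stood at 12.4, 14.1 and 15.6 RPKM in wild-type seeds and at 11.3, 12.2 and 9.89 RPKM in rbpl seeds, without overlap. With a log2 fold change of −0.31 it did not pass with all libraries (limma adjusted p = 0.200), and without WT-1 the value was −0.39 (limma adjusted p = 0.0248). PIP1 genes resemble one another closely, as do PIP2 genes, and the handling of reads that match several of them is not stated in the labels or the file, so the split of reads among them is uncertain.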

How the data were processed

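RNA of developing rice seeds was sequenced in 3 wild-type and 3 rbpl libraries, made from total RNA with a NEBNext Ultra RNA kit, per the labels' protocols. The authors deposited the RPKM of each locus in each library, per the file headers. Its build, annotation, aligner and counting tool were not given in the sources used here. Means, ratios and p-values in the same table were not used.

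Library totals and reads were recovered from the steps of the RPKM values. All 32287 loci above 0 gave whole reads in every library within 0.001 reads, and of 5813 simulated loci 98.8% came back exactly. Read numbers cover counting error only, and a divisor shared by the 6 libraries cannot be seen.

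Differences were tested with limma 3.58.1 in R 4.3.3 (options trend and robust, no covariates) on log2(RPKM + 1), over the 17507 loci with a mean of at least 1 RPKM in at least 1 group. Tests were two-sided, p-values were adjusted over all these loci by the Benjamini-Hochberg method, and the threshold was 0.05. This scale understates the change of low loci. In data simulated from this comparison (17507 loci), 69 of 100 loci with a 2-fold change and 97 of 100 with a 4-fold change were called, beside 6 unchanged ones. The simulated noise was independent between loci and libraries, without the shared shift of WT-1, and the lowest loci were not among those changed. These counts therefore do not measure how many changes were missed or falsely called in the real libraries. RPKM values of each of the 10 members were compared by a two-sided exact permutation test. The alternatives were other pseudocounts, minimum levels and scalings, a replicate block, limma-voom on the recovered reads, and leaving out each library. All members, RBP-L, and those other aquaporin loci that passed the test or reached the level of the lowest member could be named. The members and lists were chosen with earlier results of these data known. Further steps used Python 3.11.15, numpy 2.4.6, pandas 2.3.3, scipy 1.17.1 and matplotlib 3.10.9. No sequences are shown, since the reference table used here holds none.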

Additional observations from a re-analysis of the deposited data

How the results depend on the processing

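The call of PIP1;2 lay at the threshold. It held under upper-quartile scaling, limma-voom and without WT-1. It was lost with a pseudocount of 0.1 (log2 fold change 0.532, adjusted p = 0.0504), with no minimum level (0.530, 0.0882), with a minimum of 5 RPKM (0.530, 0.0538), with median-of-ratios scaling (0.588, 0.0615) and with the replicate number as a block (0.530, 0.10), all by limma. Its log2 fold change stayed between 0.449 and 0.608 over all 13 alternatives. The count of changed members was 0 under the first 4 of these settings and 0 without each library other than WT-1, with 4 members higher and 0 lower at an unadjusted p below 0.05 in each of them (5 without WT-2). It was 4 without WT-1, where 8.51% of all tested loci rose and 9.51% fell. Over all loci, 1078 of 17507 were called with the pseudocount of 0.1 and 783 of 32287 with no minimum level. With the minimum of 5 RPKM 660 of 10744 were called, and with median-of-ratios scaling 1131 of 17457. Shares of all loci at an unadjusted p were not counted for these settings, nor with a library other than WT-1 left out.

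Replicate numbers are only shared between the groups: the correlation of same-numbered libraries, after subtracting each group's mean, was 0.0476, 0.259 and −0.380. With the replicate block 2 members were called, PIP1;3 (1.065, adjusted p = 0.0373 by limma) and PIP2;2 (0.717, adjusted p = 0.0492 by limma). Over all 17507 tested loci, 494 rose and 469 fell with this block.

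Leaving out 1 library moved the log2 fold change of PIP1;1 between 0.341 and 0.601, PIP1;2 between 0.449 and 0.608, PIP1;3 between 0.697 and 1.294, PIP2;2 between 0.478 and 0.840 and TIP1;1 between −0.084 and 0.488, in each case but PIP1;2 with WT-1 left out at the lower end. The remaining tested members and RBP-L kept their direction and their side of the threshold in all 13 alternatives, though uncalled values moved: PIP2;6 from −0.141 to −0.038 without rbpl-3, PIP2;1 from 0.276 to 0.142 without WT-1 and 0.408 without WT-2, TIP2;2 from 0.271 to 0.059 and TIP3;1 from 0.122 to 0.025 without WT-1. The count of changed loci was 660 with the minimum of 5 RPKM, which tests fewer loci, and 356 to 3130 when 1 library was left out (3130 with WT-1 left out, 736 for WT-2, 667 for WT-3, 356 for rbpl-1, 389 for rbpl-2 and 453 for rbpl-3). The cause was not tested. Depth limits what can be said of LOC_Os04g44060, with 5 to 32 reads.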
